A study of Drosophila melanogaster with 2 samples.

Results

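The 35 glutathione transferase genes of Drosophila melanogaster were examined for regions bound by Hnf4 in larvae. They were all protein-coding genes of the BDGP6 annotation whose symbol is Gst followed by D, E, O, S, T or Z and a number, out of 13981 protein-coding genes on the assembled chromosomes and the mitochondrial genome. They carry 45 annotated transcription start sites (TSSs). The rule reads gene names and no measured value, although the family was picked with earlier results of these data known. A gene was said to have a region when the summit of that region, its point of strongest enrichment as deposited, lay within 1000 bp of one of its TSSs.

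Glutathione transferases couple reduced glutathione to electrophilic compounds such as plant toxins, insecticides and the products of lipid peroxidation, and some also act as isomerases or peroxidases. The delta and epsilon classes (GstD and GstE) are expanded in insects and lie mostly in tandem clusters, while the omega, sigma, theta and zeta classes (GstO, GstS, GstT and GstZ) have relatives in vertebrates. Hnf4 is a nuclear receptor, and in flies it is known for its part in fat breakdown and glucose handling in larval and adult tissues.

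The samples were 2 biological replicates of 1 transgenic line that carries Hnf4 with green fluorescent protein at its C-terminus, and there was no second genotype, treatment or stage. Chromatin came from whole larvae, male and female together, of the third instar at its wandering stage. The description in the labels states a precipitation against green fluorescent protein, while the antibody field names Hnf4. Region lists were deposited for each replicate (29999 regions for replicate 1 and 30000 for replicate 2), for both replicates pooled (30000) and as an optimal list of 5817 regions, which were the 5817 strongest of the pooled list. The replicate and pooled lists are relaxed ones that hold background as well as binding. Each region has a signal value, the authors' measure of its enrichment, which ranks regions within its own list and is not on one scale across lists. The lists hold no read counts, so the depth is unknown and no counting interval was computed. Larvae were used whole, so strong binding in a few tissues and weak binding in many cannot be told apart.

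Regions of the optimal list lay at 11 of the 35 glutathione transferase genes, or 31.4%, against 22.9% of all protein-coding genes. The 11 were GstE13, GstT1, GstT4, GstS1, GstT2, GstE1, GstE10, GstD1, GstO1, GstZ2 and GstE3. In the relaxed pooled list 26 members, or 74.3%, had a region, against 41.5% of all protein-coding genes. The relaxed lists of the replicates held a region at 27 members in replicate 1 (77.1%, against 44.7% of all genes) and at 23 members in replicate 2 (65.7%, against 45.0%). The gap between the share of members and that of all genes was wider in the relaxed lists than in the optimal one. These shares are descriptions and were not tested, because the family was picked in that way and because tandem neighbours can share a region. In the pooled list the 26 members had 43 distinct regions, of which 7 were shared between members and 12 members had a shared one. The shared ones lay at GstD2/GstD3, GstD4/GstD5, GstE10/GstE1, GstE4/GstE5, GstE6/GstE7/GstE8, GstE7/GstE8 and GstE8/GstE9.

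**Figure D1:**
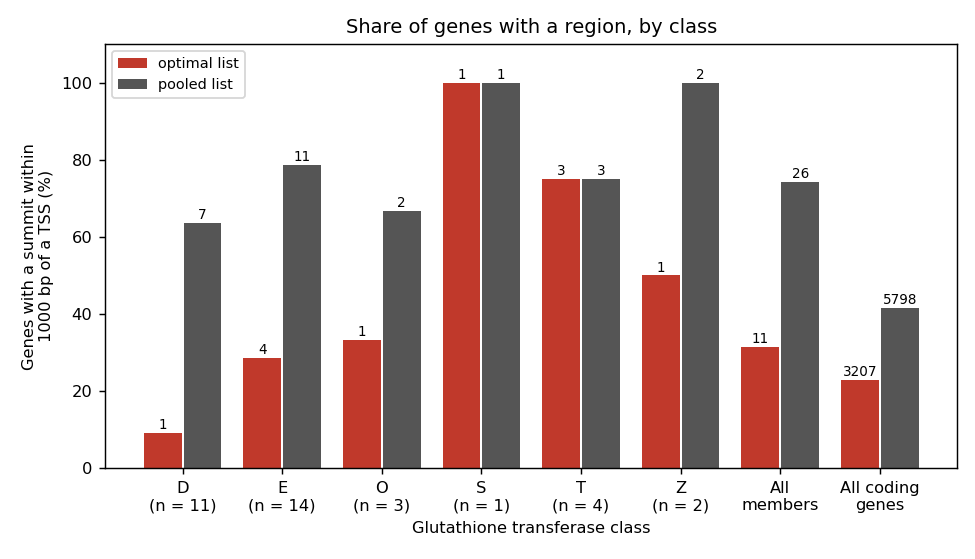
Share of genes with a summit within 1000 bp of a TSS, in percent, for each glutathione transferase class, for all 35 members and for all protein-coding genes. Red bars stand for the optimal list and grey bars for the relaxed pooled list, and the figure over each bar is the number of genes with a region. The theta class had 3 of 4 genes in the optimal list and the delta class 1 of 11, and the sigma bar rests on 1 gene.

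Counts by class rest on few genes and were not tested against each other or against the 22.9% of all protein-coding genes. Of the theta class, 3 of 4 genes had an optimal region, and the 1 sigma gene had 1 as well. The epsilon class had 4 of 14, the omega class 1 of 3, the zeta class 1 of 2 and the delta class 1 of 11. In the relaxed pooled list the delta class had 7 of 11 and the epsilon class 11 of 14, beside 41.5% of all protein-coding genes. Most genes of these big classes thus had a weak region or none, as did most protein-coding genes. By genomic layout, the members in the tandem clusters of 10 or more genes had an optimal region at 4 of 21 genes, those in pairs and trios at 4 of 7, and those that lie alone at 3 of 7, also untested beside the 22.9%. The 4 cluster members rest on 3 regions, since GstE1 and GstE10 share 1.

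Signal values at the members ran from near the top of the optimal list to close to its lower end. The strongest region of each of the 11 members had a signal value between 77.1 and 1082, with a median of 99.9, while over all 3207 genes with an optimal region the range was 66.6 to 3161 and the median 144. Ranked among those genes by strongest region, GstE13 was number 33, GstT1 number 122 and GstT4 number 543 of 3207. The remaining 8 were numbers 1382 (GstS1) to 2905 (GstE3). Summits lay near the start sites, with a median distance of 61 bp for the 11 members and 161 bp for all genes with an optimal region.

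**Figure D2:**
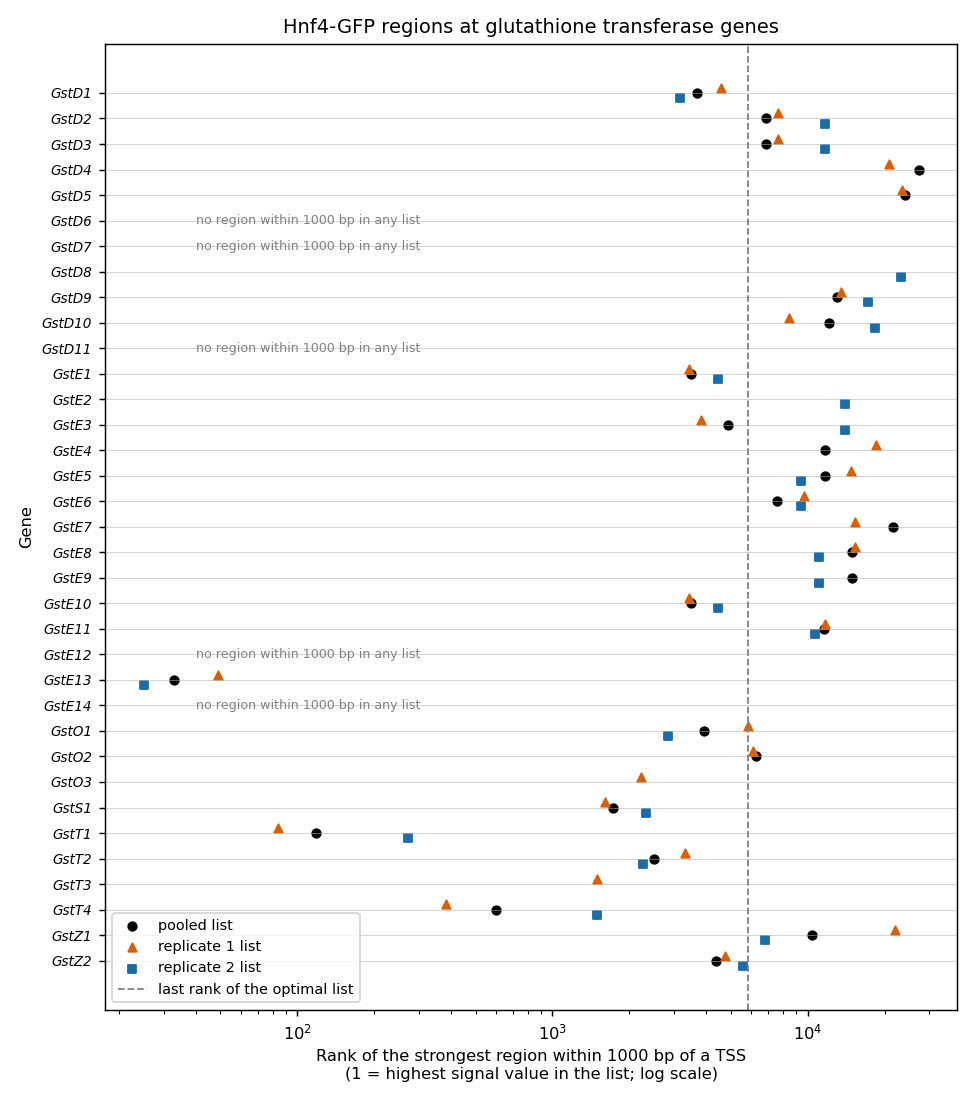
Rank, on a log scale, of the strongest region within 1000 bp of a TSS for each member in the pooled list (black circles), the replicate 1 list (orange triangles) and the replicate 2 list (blue squares). Rank 1 is the highest signal value, and the dashed line is rank 5817, the last of the optimal list. GstE13 and GstT1 sit far to the left in all 3 lists, and 5 genes have no region in any list. The share of all protein-coding genes without a region in any list is not given here.

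Sequences are shown for 4 of the members with an optimal region, so that the DNA under their summits can be read. Each is 201 bases of the dm6 reference (Release 6 from RefSeq), centred on the summit and given 5′ to 3′ on the strand of the gene. The single capital in the middle is the summit base, and the other capitals mark the TATAAA just before the TSS of GstD1 and the DNA replication-related element TATCGATA in GstO1. The letters TATAAA also occur, unmarked, in the GstO1 and GstZ2 windows, outside the stretch before a TSS that was searched for them.
GstT4 (chrX:13404398-13404598, plus strand): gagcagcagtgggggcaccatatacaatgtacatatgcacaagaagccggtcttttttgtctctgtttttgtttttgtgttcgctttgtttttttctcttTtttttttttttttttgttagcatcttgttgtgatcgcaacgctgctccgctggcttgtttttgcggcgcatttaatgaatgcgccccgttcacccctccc
GstD1 (chr3R:12369112-12369312, minus strand): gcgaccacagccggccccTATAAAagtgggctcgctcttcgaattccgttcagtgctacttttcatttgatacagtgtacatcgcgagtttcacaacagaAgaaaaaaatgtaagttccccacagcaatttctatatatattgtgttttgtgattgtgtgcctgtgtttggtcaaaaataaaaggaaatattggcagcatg
GstO1 (chr3L:8525104-8525304, minus strand): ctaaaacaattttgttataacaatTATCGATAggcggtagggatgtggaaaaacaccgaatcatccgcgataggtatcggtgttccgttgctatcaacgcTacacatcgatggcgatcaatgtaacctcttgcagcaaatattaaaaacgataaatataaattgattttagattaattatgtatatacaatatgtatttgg
GstZ2 (chr3R:9459808-9460008, minus strand): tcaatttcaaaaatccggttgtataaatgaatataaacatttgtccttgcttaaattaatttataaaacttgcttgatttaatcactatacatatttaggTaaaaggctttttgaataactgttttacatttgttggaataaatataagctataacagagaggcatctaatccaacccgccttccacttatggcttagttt

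The theta class had an optimal region at 3 of its 4 genes, and the fourth had a region in 1 replicate. GstT4 (FBgn0030484, X 13404749 to 13409323, plus strand) had a pair of overlapping optimal regions just before its TSS. The stronger one had a signal value of 290 with its summit 251 bp upstream, in intergenic DNA that holds the long run of T printed above. It had a value of 214 in replicate 1 (rank 382) and 76.6 in replicate 2 (rank 1492). The weaker one, 52 bp upstream, had 107 in the optimal list, with 79.5 in replicate 1 (rank 2604) and 18.7 in replicate 2 (rank 9883). Replicate 2 thus ranked both lower than replicate 1 did, and the weaker one outside its 5817 strongest regions. A relaxed pooled region of 42.7 (rank 9839), 921 bp upstream of GstT4, was also within 1000 bp of a TSS of CG12725.

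GstT3 (FBgn0031117, X 20467455 to 20469796, plus strand), the last of the theta genes, had regions in replicate 1 only. Its list held a region of signal value 110, rank 1495, with its summit 42 bp downstream of a GstT3 TSS, in an intron, and a weaker one of 18.2. Neither replicate 2 nor the pooled list held a region within 1000 bp of its TSSs. GstO3 (FBgn0035904), an omega class gene on 3L, showed the same pattern, with a value of 87.4 in replicate 1 (rank 2229), 490 bp downstream of its TSS, and nothing in the other lists. The cause of these single-replicate regions was not tested. Of the 5817 strongest replicate 1 regions, 350 overlapped no pooled region, and 235 overlapped neither a pooled nor a replicate 2 region. The bases around both of these summits, shown because they are the strongest member regions without support from the second replicate, held none of the 7 motifs searched (capital: summit base).
GstT3 (chrX:20468327-20468527, plus strand): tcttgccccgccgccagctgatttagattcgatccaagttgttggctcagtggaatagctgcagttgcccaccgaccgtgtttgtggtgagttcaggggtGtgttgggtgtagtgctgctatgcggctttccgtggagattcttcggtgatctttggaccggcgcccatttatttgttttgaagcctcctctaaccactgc
GstO3 (chr3L:8519275-8519475, plus strand): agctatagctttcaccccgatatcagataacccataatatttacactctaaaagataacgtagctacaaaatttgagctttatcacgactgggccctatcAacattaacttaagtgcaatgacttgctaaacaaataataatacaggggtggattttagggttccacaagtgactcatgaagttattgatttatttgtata

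GstT1 (FBgn0050000) and GstT2 (FBgn0050005) lie one after the other on the plus strand of 2R, between 9605988 and 9608350, and each had its own region at its start. The GstT1 region (9605730 to 9606120) had a signal value of 603, rank 118 of the optimal list, with its summit 20 bp upstream of the TSS. Replicate 1 gave 414 there (rank 84) and replicate 2 gave 190 (rank 271). The GstT2 region (9607172 to 9607319) was much lower at 126, rank 2503, with its summit 16 bp upstream, and had 68.0 in replicate 1 (rank 3314) and 58.0 in replicate 2 (rank 2263). Neither optimal summit was within 1000 bp of both start sites, so the pair shared no optimal region.

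GstE13 had the strongest region of the whole family. This epsilon class gene (FBgn0033381, 2R 9122125 to 9123309, plus strand) lies apart from the tandem cluster of its class. Its region at 9121978 to 9122383 had a signal value of 1082, rank 33 of 5817, and a summit 61 bp downstream of a TSS, in an untranslated exon. Replicate 1 gave 553 there (rank 49) and replicate 2 gave 531 (rank 25), with summits within 1 bp of the pooled one. No other protein-coding gene has a TSS within 1000 bp of that summit.

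The other epsilon genes outside the cluster had weak regions or none. GstE11 (FBgn0034354) had relaxed pooled regions 60 bp and 390 bp downstream of its TSS, with signal values of 36.8 (rank 11617) and 31.3 (rank 13980). Replicate 1 had 18.7 at 62 bp and 26.0 at 391 bp, and replicate 2 had 17.8 at 20 bp and 11.0 at 502 bp. GstE12 (FBgn0027590) and GstE14 (FBgn0033817) had no region in any list. GstE14, also called noppera-bo, is needed in the prothoracic gland for making ecdysone, the moulting hormone. The nearest pooled summit lay 10514 bp upstream of the GstE14 TSS and 19996 bp downstream of a GstE12 TSS.

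The epsilon cluster on 2R (18396638 to 18409835) holds GstE10 and GstE1 to GstE9, and its 2 optimal regions lay toward one end. GstE10 and GstE1 point away from each other and share the region at 18398157 to 18398552, whose summit is 38 bp upstream of the GstE1 TSS and 164 bp downstream of a GstE10 TSS. This was the 1 optimal region shared by a pair of members. Its signal value was 99.9 (rank 3489), with 66.4 in replicate 1 (rank 3429) and 34.8 in replicate 2 (rank 4451). GstE3 had a region of 77.1 (rank 4864) with its summit 88 bp upstream of its TSS, and 61.8 in replicate 1 (rank 3811). In replicate 2 the nearest overlapping region had 10.6 (rank 22789) and the strongest 14.7 (rank 13991), so the GstE3 region was weak in that replicate.

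From GstE4 to GstE9 the cluster had relaxed regions only, and the nearest pooled summit of each gene lay upstream of its TSS. The distance was 281 bp for GstE4 (rank 16965), 365 bp for GstE5 (rank 11650) and 391 bp for GstE6 (rank 7614). It was 31 bp for GstE7 (rank 24798), 71 bp for GstE8 (rank 21542) and 416 bp for GstE9 (rank 14979). Their signal values ran from 19.0 at GstE7 to 53.5 at GstE6, all under the lowest value of the optimal list, 66.6. Replicate 2 held no region within 1000 bp of the GstE4 or GstE7 TSS, and replicate 1 held none for GstE9. GstE2 lies between the optimal regions of its neighbours, whose summits are 1131 bp upstream and 1139 bp downstream of its TSS, just outside the window. A replicate 2 region of 14.7, 994 bp downstream, was the single GstE2 region in any list. Over all 26 members with a pooled region, the nearest pooled summit was upstream at 17, or 65.4%, against 69.2% of the 5798 genes with one, a share close to that of the members.

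**Figure D3:**
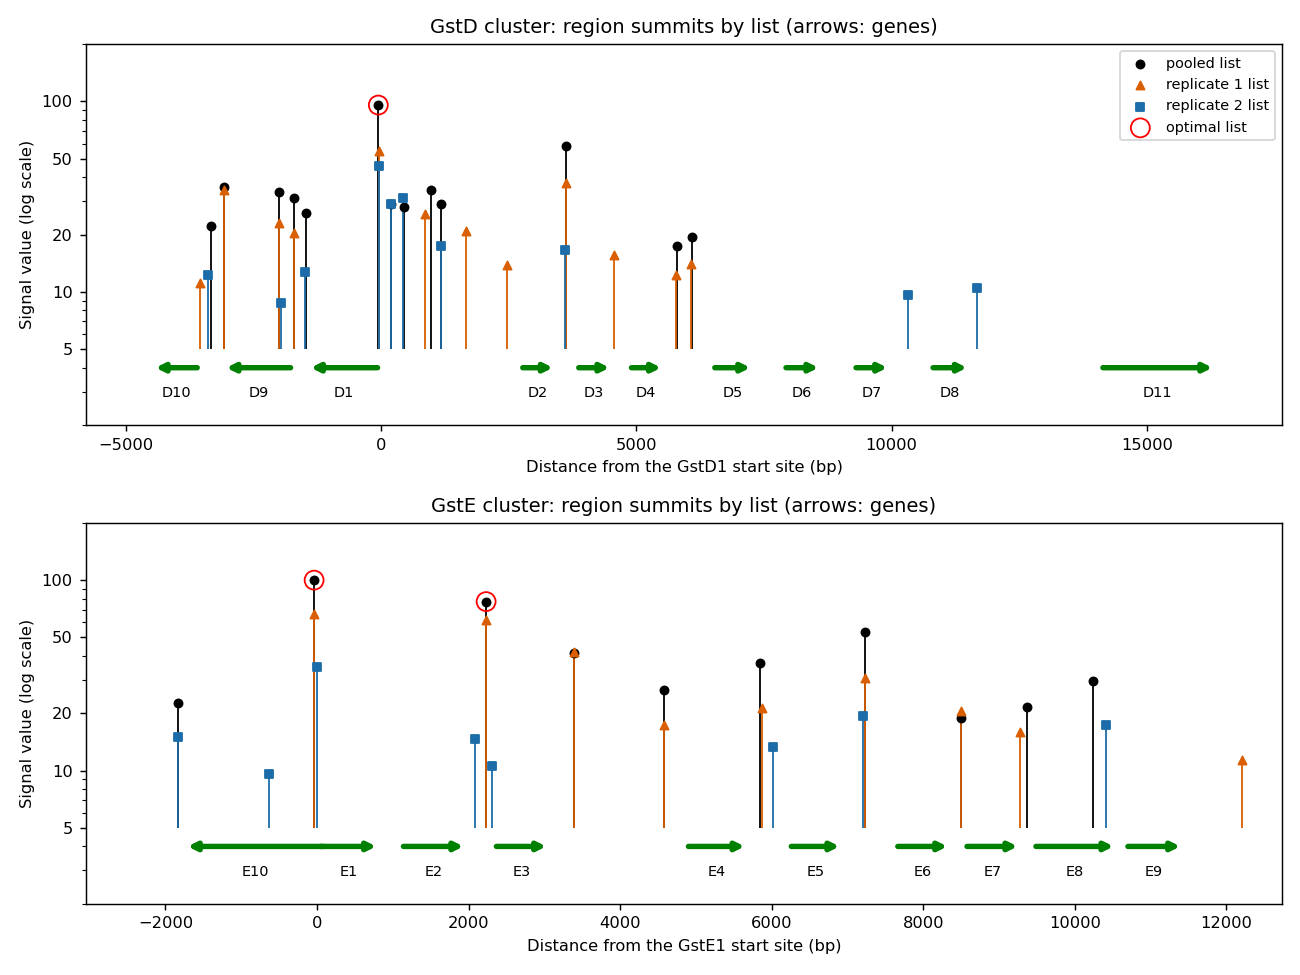
Signal value (log scale) of every region summit within 2000 bp of a member TSS in the delta cluster (top) and the epsilon cluster (bottom), by distance in bp from the GstD1 or GstE1 start site. Black circles are pooled, orange triangles replicate 1 and blue squares replicate 2 regions, red rings mark regions of the optimal list, and green arrows are the genes. The delta cluster has 1 red ring, at GstD1, and no black circle to the right of GstD5, while the epsilon cluster has 2 red rings, at GstE10/GstE1 and GstE3.

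The delta cluster on 3R (12364776 to 12385624) holds all 11 GstD genes and had 1 optimal region, at GstD1 (FBgn0001149). GstD1 acts on lipid peroxidation products and DDT and is a much used reporter gene for oxidative stress. Its region at 12369140 to 12369282 had a signal value of 95.6 (rank 3695), with 54.6 in replicate 1 (rank 4562) and 45.5 in replicate 2 (rank 3152). The summit lay 56 bp downstream of the TSS in an untranslated exon, and summits of the replicates were within 10 bp of it. In the printed sequence TATAAA starts 26 bases before the TSS.

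Apart from its optimal region, GstD1 had weaker pooled regions 201, 449 and 971 bp upstream of its TSS, with signal values of 28.8, 27.8 and 34.4. In replicate 2 it had regions 201 bp and 437 bp upstream, with 28.9 (rank 5625) and 31.2 (rank 5111). The other genes of the cluster had relaxed regions only, or none. The strongest relaxed region elsewhere was shared by GstD3, 170 bp upstream of its TSS, and GstD2, 927 bp downstream of its TSS. It had 58.3 in the pooled list (rank 6868), 37.3 in replicate 1 (rank 7634) and 16.7 in replicate 2 (rank 11656). GstD9 had pooled regions of up to 33.3 (rank 13047) and GstD10 of up to 35.4 (rank 12107), while GstD4 had 17.4 (rank 27223) and GstD5 19.5 (rank 24070). The GstD4 region lay 956 bp downstream of its TSS and was shared with GstD5. Replicate 2 held no region within 1000 bp of the TSS of GstD4 or GstD5. GstD6, GstD7 and GstD11 had no region in any list, and GstD8 had regions in replicate 2 only, of up to 10.4. After the summit at GstD5 no pooled summit followed for 22710 bp. Of the 36-base words within 1000 bp of a GstD TSS, between 98.9% and 100% per gene occurred once in the reference, with a median of 99.9%. Over all protein-coding genes the median was 100% and the 10th percentile 99.4%. GstD2 (98.9%), GstD3 (99%) and GstD5 (99.1%) lay below that percentile. The length of the reads is unknown here.

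The optimal regions of the remaining classes had signal values from 73.7 to 161, and 2 of them lay nearer to the start of another gene. GstS1 (FBgn0010226, 2R 17093246 to 17099501, minus strand), the sigma class gene, had a region of 161 (rank 1725) 25 bp downstream of a TSS, with 106 in replicate 1 (rank 1604) and 56.8 in replicate 2 (rank 2334). A second GstS1 region of 73.7 (rank 5133) lay 750 bp upstream of its longest transcript but 10 bp from a TSS of CG46491, and had 48.5 in replicate 1 (rank 5385) and 25.8 in replicate 2 (rank 6473). The GstO1 region (FBgn0035907, 3L 8525127 to 8525288) had 91.9 (rank 3915), with 45.7 in replicate 1 (rank 5835) and 49.2 in replicate 2 (rank 2827). Its summit was 338 bp upstream of GstO1 and 40 bp upstream of foi, which encodes a zinc transporter, so it lay nearer to foi.

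GstO2, next to GstO1, was the member closest to the optimal list from outside. Its pooled region, 12 bp downstream of the TSS, had 63.0 (rank 6245) and 44.1 in replicate 1 (rank 6124), while replicate 2 held none within 1000 bp. The zeta class holds GstZ1 and GstZ2, of the family that acts as maleylacetoacetate isomerase in tyrosine breakdown. GstZ2 (FBgn0037697, 3R 9456815 to 9460652, minus strand) had a region of 83.7 (rank 4379) in an intron, 732 bp upstream of the nearest of its 3 TSSs, the largest such distance among the 11. It had 53.2 in replicate 1 (rank 4743) and 29.1 in replicate 2 (rank 5566). GstZ1 had a relaxed region 64 bp upstream of its TSS, with 40.7 in the pooled list (rank 10395), 14.9 in replicate 1 (rank 21917) and 24.9 in replicate 2 (rank 6791).

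Most of the optimal regions at members overlapped one of the 5817 strongest regions of each replicate. This overlap is in part built in, because the optimal list was made from these same replicates. Counting only optimal regions that overlapped one of the 5817 strongest of each replicate, 9 of 35 members, or 25.7%, kept a region, against 17.9% of all protein-coding genes. Of those with an optimal region to begin with, 9 of 11 members and 2498 of 3207 genes kept one, so most did in both groups. The members without such support were GstE3 and GstO1. Among its own 5817 strongest regions, replicate 1 had a region at 12 members (34.3%, against 24.5% of all genes) and replicate 2 at 10 (28.6%, against 24.2%). The replicate 1 set included GstO3 and GstT3 and missed GstO1, while the replicate 2 set missed GstE3.

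**Figure D4:**
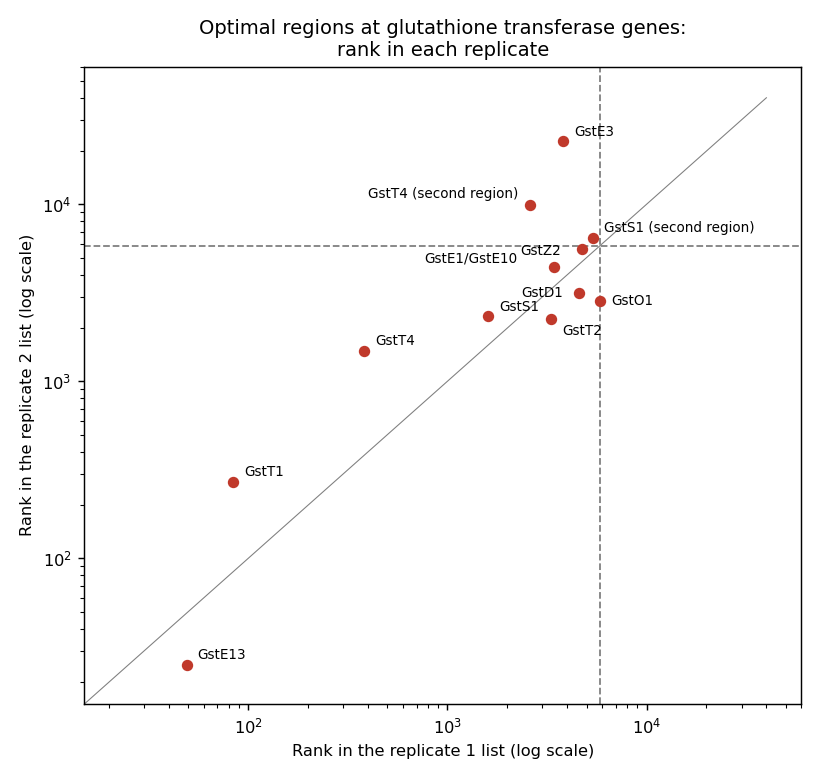
Rank in replicate 1 (x axis) and replicate 2 (y axis), both on log scales, of the overlapping region with the nearest summit for each of the 12 optimal regions at members. Dashed lines mark rank 5817, the thin line marks equal ranks, and 8 of the 12 regions are within rank 5817 in both replicates. The same share over all optimal regions is not given here. GstE3 lies highest, with rank 3811 in replicate 1 and 22789 in replicate 2.

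A set of 7 motifs was searched within 100 bp of the 12 optimal summits at members. The Hnf4 site CAAAGTCCA was within 100 bp of none of the 12, against 1.05% of all 5817 optimal summits, and its core CAAAGTC was near none either, against 4.04%. At such shares no match among 12 is a description of these windows and says nothing of the factor. GAGAGAG occurred at 3 of the 12 (GstS1 at both its regions, and the GstE10/GstE1 region), against 6.05% of all optimal summits. TGACNNNGC, the core of the antioxidant response element bound by the Nrf2 relative CncC, occurred at GstE3, against 5.29%, and TATCGATA at GstO1, against 4.04%. The M1BP site GGTCACAC and the GATA site AGATAAG were at none. All motifs were searched on both strands, the core CAAAGTC lies within CAAAGTCCA, and no other motif of the 7 contains another.

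TATAAA, looked for after the GstD1 sequence was read, started 40 to 15 bases before a TSS on the strand of the gene at 6 of 35 members, or 17.1%, against 9.80% of all protein-coding genes. The 6 were GstD1, GstD8, GstE3, GstE7, GstO3 and GstS1. Of the 11 members with an optimal region 3 had it, or 27.3%, against 6.24% of the 3207 genes with an optimal region. Of the 24 members without one, 3 had it as well, or 12.5%, against 10.9% of all genes without one. GstD1, whose sequence prompted the search, is among the 6 and among the 3 with an optimal region. Those shares were thus in part set by that choice, and none of the shares was tested.

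Other genes of glutathione chemistry and its control were looked up in the same way. Of 17 such genes found in the annotation, 5 had an optimal region, or 29.4%, and 9 a relaxed pooled one, or 52.9%, beside 22.9% and 41.5% of all genes. The 5 were Keap1, for the inhibitor of CncC, at a signal value of 328, cnc, for CncC itself, at 264, MRP, for a transporter of conjugates, at 243, Mgstl, for a microsomal glutathione transferase, at 156, and Grx1, for a glutaredoxin, at 146. Of the enzyme subunits that make glutathione, Gclc had a relaxed region only, of 54.1, and Gss1 and Gss2 had none. Gclm, for the modifier subunit of glutamate-cysteine ligase, had regions of 99.2 in replicate 1 (rank 1779) and 114 in replicate 2 (rank 765) within 67 bp of its TSS, but none in the pooled list, and the cause was not tested. Gclm, Gss1, Gss2 and se were chosen for mention after their values were seen. The omega class gene se, which lies inside the GstO cluster and fell outside the naming rule, had no region in any list.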

How the data were processed

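Region lists in narrowPeak format, deposited by the authors for dm6, were used, and the older dm3 lists were not used here. Each region has a signal value, deposited by the authors as its enrichment, and a -log10 q, also deposited by the authors, which was not used to choose regions. Summits were placed from the offset in the same lists. The optimal list is the one thresholded by the irreproducible discovery rate, and the others were its input, per the deposited file descriptions, so overlap between the lists is in part built in. No aligner or peak caller is named in the sources used here. The lists hold no read counts, so depth is unknown.

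Genes and TSSs came from Ensembl release 115 (19643 TSSs of 13981 genes; 5 genes on other sequences were left out). No region ran past a chromosome end of the Release 6 genome from RefSeq. Clusters were members separated by at most 5000 bp. Replicate regions were matched to optimal ones by at least 1 bp of overlap, taking the nearest summit. No test was run: members, gene lists and motifs were chosen with earlier results of these data known. All members with an optimal or relaxed region were named, with the 6 other glutathione genes of highest signal value, and 4 more chosen after their values were seen. Neighbours that share a region with a member were named too, and members without a region by class. PHGPx was not matched. The search for TATAAA was added after the sequences were read. Alternatives were other TSS windows, canonical TSSs, stricter peak sets and each replicate alone. The assignment of summits to genes was checked on simulated data. Python 3.11.15, numpy 2.4.6, pandas 2.3.3 and matplotlib 3.10.9 were used.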

Additional observations from a re-analysis of the deposited data

How the results depend on the processing

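The count of 11 members with an optimal region (22.9% of all protein-coding genes) was 10 with a TSS window of 500 bp (19.8% of all genes), 14 with 2000 bp (27.3%; GstD9, GstE2 and GstO2 added), 10 with canonical TSSs only (20.8%), 9 with support from both replicates at an overlap of 1 bp (17.9%) and 8 at 50% (16.4%). It fell to 5 in the strongest 50% of optimal peaks (14.3% of members, against 14.8% of all protein-coding genes). Leaving out a replicate gave 10 to 12 members (24.2% to 24.5% of all genes). Without replicate 1 GstE3 was lost, and without replicate 2 GstO1 was lost while GstO3 and GstT3 were added. GstZ2 was lost with the 500 bp window and with canonical TSSs, and GstT4 at 50% overlap. The median signal value of 99.9 was 113 with the 500 bp window and at 50% overlap, 126 with support from both replicates at 1 bp and 290 in the strongest 50%, and leaving out a replicate gave 53.0 to 77.7, on the scale of the other replicate's list. The 12 distinct regions became 10 and 13 with windows of 500 and 2000 bp. The 26 members with a relaxed pooled region (74.3%, against 41.5% of all genes) became 24 of 35 (against 36.2%) and 28 of 35 (against 47.4%) with those windows. Without replicate 1 there were 23 (65.7%, against 45.0%), and without replicate 2 there were 27 (77.1%, against 44.7%). No paired analysis was possible because the samples form 1 group. Sequencing depth, and so the weakest binding the lists could hold, is unknown, and 2 replicates give no measure of spread beyond the pair of values at each region.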
